A study of Mus musculus with 57 samples.

Results

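The 8 genes described here are used as markers of oligodendrocyte progenitors: Pdgfra, Cspg4, Gpr17, Neu4, C1ql1, Lhfpl3, Cspg5 and Sox6. They were taken by matching these mouse symbols to the Ensembl identifiers of a gene-level RNA-seq table, and all 8 of 8 were found among its 18088 genes. RNA came from the prefrontal cortex, an area at the front of the brain, of C57BL/6J mice killed on postnatal day 25. The mice carried 1 Shank3 delta C allele (heterozygous, HT) or none (wild type, WT). Shank3 is a scaffold of excitatory synapses, and which part of it the allele alters is not stated in the labels. Pups had taken in lithium, a mood stabiliser that inhibits GSK3, fluoxetine, a blocker of serotonin reuptake, or vehicle with their mother's milk for 3 weeks, from postnatal day 3 to 24, so the dose that reached a pup is not known. HT lithium mice gave 4 male and 5 female libraries, HT fluoxetine mice 5 and 5, HT vehicle mice 3 and 5, WT lithium mice 5 and 4, WT fluoxetine mice 5 and 5, and WT vehicle mice 5 and 5. Litters are not named, so pups of 1 dam may be among the replicates, and the p-values measure the spread between these libraries.

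Oligodendrocyte progenitors are dividing glial cells that stay in the cortex throughout life and give rise to myelinating oligodendrocytes. PDGF signalling through Pdgfra drives their division, their surface carries the proteoglycan NG2 (the product of Cspg4), and on leaving the cycle they pass through a committed stage marked by Gpr17. Not all of the 8 genes are restricted to these cells: Cspg4 is also made by pericytes, Cspg5 by neurons and astrocytes, and Sox6 by a class of cortical interneurons. In tissue RNA, fewer cells of a type and less RNA per cell cannot be told apart.

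Values are normalised counts, that is reads of a gene divided by the size factor of its library, as deposited. The 56 libraries held 22984556 to 35969254 recovered reads each, and the members 161 reads (C1ql1) to 11873 reads (Cspg5) in a single library. Shank3 ranged from 7366 to 11196 in HT lithium libraries and from 6565 to 8588 in WT lithium libraries, from 6531 to 8755 in HT and from 5170.1 to 9844 in WT fluoxetine libraries, and from 5748 to 8248 in HT and from 6022 to 8496 in WT vehicle libraries. Of the 9 HT lithium libraries 8 lay above all WT lithium libraries, whereas 0 of 10 HT fluoxetine and 0 of 8 HT vehicle libraries lay above all WT libraries of their treatment. Shank3 was called higher under lithium in HT mice (0.34 ± 0.09, adjusted p = 0.0127). HT against WT it was 0.34 ± 0.09 under lithium (adjusted p = 0.214), 0.08 ± 0.08 under fluoxetine (adjusted p = 0.734) and 0.05 ± 0.09 under vehicle (adjusted p = 0.915). At the level of the whole gene these values do not check the genotype labels. Genes typical of the olfactory bulb, which adjoins this cortex, differed widely between libraries of 1 group. The olfactory level, the mean log2 value of Eomes, Doc2g, Cdhr1, Th and Trh, ran from 4.54 to 11.03 over the libraries. The 14 libraries of highest level are called the most olfactory libraries. They include replicates 2, 3 and 4 of HT lithium females, so fits without them keep only replicates 1 and 5 of that group. They also include replicates 1, 2 and 4 of WT fluoxetine females, which leaves only replicates 3 and 5. Also, 2 libraries stood apart from the rest: replicate 1 of HT vehicle females, which lay 22.7 median absolute deviations away in choroid plexus genes, and replicate 5 of HT lithium females, 11.2 in mitochondrially encoded genes. Of the general lineage regulators, Olig1 ranged from 1531 to 3482, Olig2 from 351 to 897 and Sox10 from 528 to 1395 normalised counts, so the lineage was detected in each of the 56 libraries.

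Per kilobase of transcript, Cspg5 was the most abundant of the 8 at 1136 normalised counts, averaged over libraries, followed by Gpr17 at 601. Lhfpl3 (272), Pdgfra (269) and C1ql1 (180.3) lay in the middle. Cspg4 (78.4), Sox6 (76.5) and Neu4 (70.9) were the lowest on this scale. The residual SD of log2 values within groups, a measure of how tightly libraries of 1 group agreed, was smallest for Cspg5 (0.10) and largest for C1ql1 (0.32) and Lhfpl3 (0.35). The median over all 18026 tested genes was 0.19.

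Promoter windows were read from RefSeq (GRCm38.p6), from 250 bases before to 50 bases after the start, and a window was found for Pdgfra, Cspg4, Neu4 and Lhfpl3 (1 each) and for Sox6 (6 windows). Those of Cspg4 (chr9:56864854-56865153), Neu4 (chr1:94020243-94020542) and Lhfpl3 (chr5:22745804-22746103), all on the plus strand, are shown because Cspg4 and Neu4 varied together between libraries whereas Lhfpl3 followed another pattern. Capitals mark CAGCTG, an E-box of the kind that basic helix-loop-helix factors can bind.
Cspg4: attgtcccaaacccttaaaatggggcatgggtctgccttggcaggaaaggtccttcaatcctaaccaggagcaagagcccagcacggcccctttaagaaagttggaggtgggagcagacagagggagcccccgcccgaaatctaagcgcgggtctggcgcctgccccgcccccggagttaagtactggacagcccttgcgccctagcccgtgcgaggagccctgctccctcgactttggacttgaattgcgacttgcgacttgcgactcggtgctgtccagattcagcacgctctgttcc
Neu4: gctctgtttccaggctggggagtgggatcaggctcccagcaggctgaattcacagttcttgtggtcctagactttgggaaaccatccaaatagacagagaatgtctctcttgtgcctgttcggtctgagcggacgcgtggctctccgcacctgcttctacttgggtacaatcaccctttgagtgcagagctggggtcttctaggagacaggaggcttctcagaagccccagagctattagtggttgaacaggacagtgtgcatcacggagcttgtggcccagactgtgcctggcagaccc
Lhfpl3: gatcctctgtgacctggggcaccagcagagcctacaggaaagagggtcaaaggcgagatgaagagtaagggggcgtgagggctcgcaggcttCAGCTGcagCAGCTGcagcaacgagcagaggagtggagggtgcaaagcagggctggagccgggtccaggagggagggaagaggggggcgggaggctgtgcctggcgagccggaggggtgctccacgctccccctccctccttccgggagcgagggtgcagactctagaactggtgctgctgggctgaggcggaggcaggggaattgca
The Lhfpl3 window holds CAGCTG at 158 and again at 149 bases before the start, and neither the Cspg4 nor the Neu4 window holds it. Among the other members, a Sox6 window also holds CAGCTG, at 156 bases before the start. CAGCTG was present in 16.3% of the 32851 promoter windows of the table. The SOX core motifs ACAAAG (18.7% of windows) and ACAATG (12.6%) were found among the members only in windows of Sox6, and the E-box CATATG (3.91%) in none of the members' windows, searching both strands. GC content was 60% in the Cspg4 window, 55.3% in the Neu4 window and 66% in the Lhfpl3 window, and the median over the table was 52.7%. These matches describe the letters of the windows only.

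**Figure D1:**
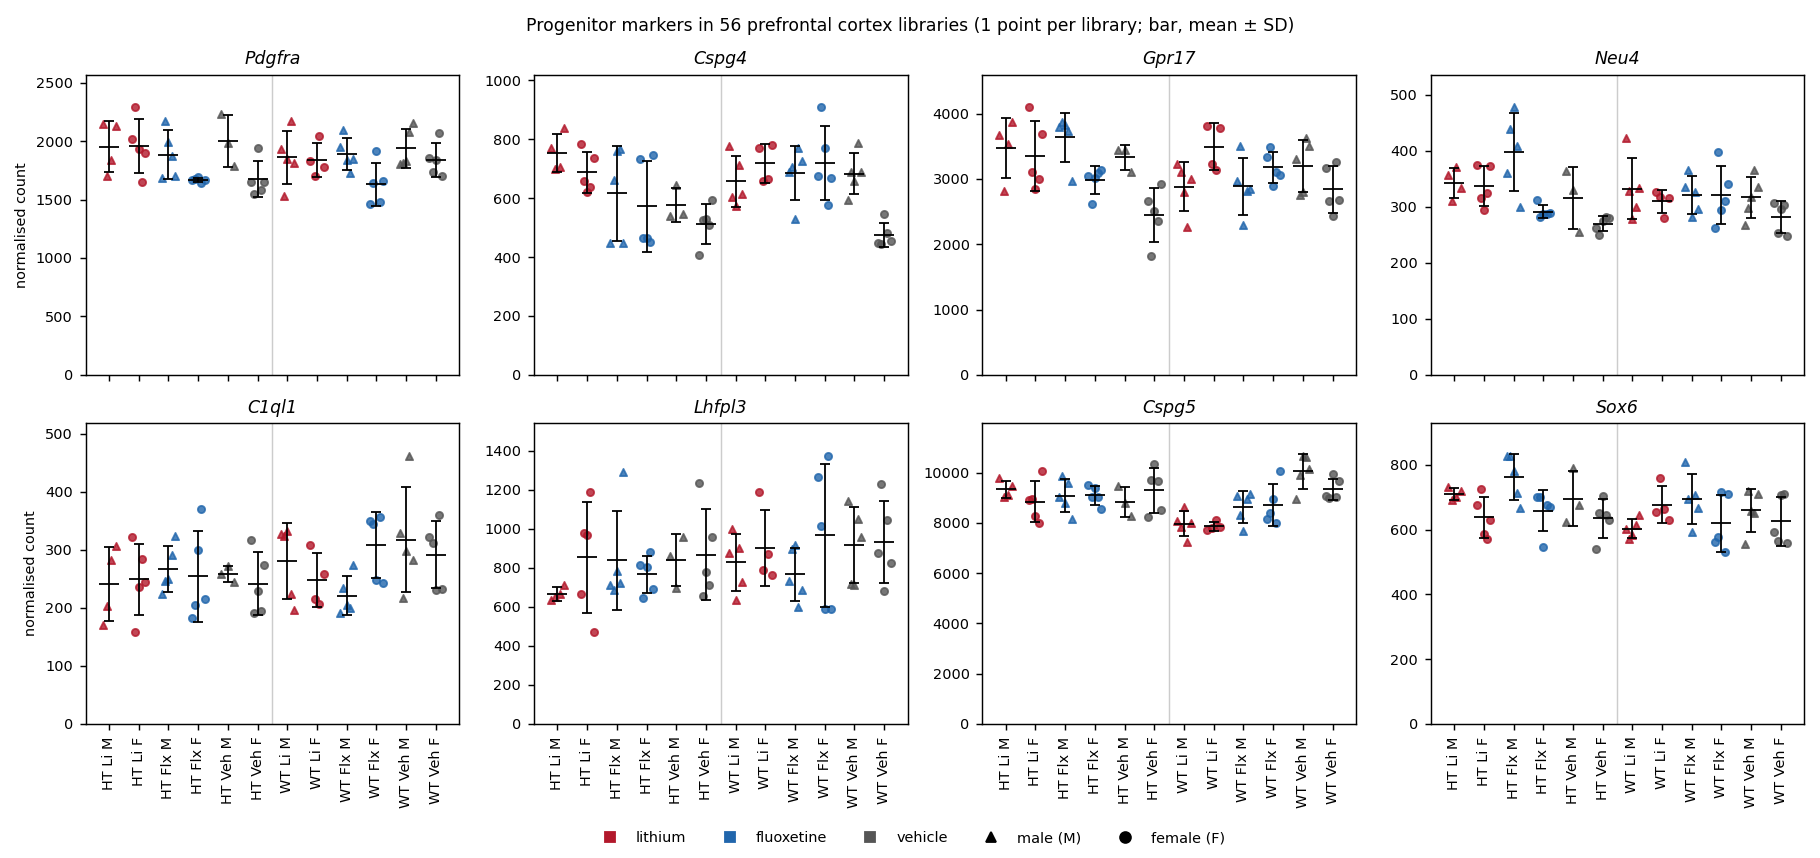
Normalised counts of the 8 genes (vertical axes from 0) in the 12 groups (horizontal axis: genotype, drug, sex; Li lithium, Flx fluoxetine, Veh vehicle), with 1 point per library and bars for mean ± SD. Cspg5 libraries of WT lithium mice lie between 7253 and 8635, below all WT vehicle libraries, which start at 8954, while Lhfpl3 spreads widely within groups.

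Cspg5 (ENSMUSG00000032482, chromosome 9, 110243783 to 110262576, plus strand) encodes neuroglycan C, a transmembrane chondroitin sulphate proteoglycan with an EGF-like domain. It was lower in WT mice given lithium than in WT mice given vehicle. The WT lithium males had 8086, 7839, 8635, 7253 and 8008 normalised counts and the WT lithium females 7703, 7789.8, 8131 and 7856. The WT vehicle males had 8954, 9890.0, 10679.8, 10631 and 10129 and the WT vehicle females 9054, 9008, 9934, 9017 and 9649. Each of the 9 lithium libraries lay below each of the 10 vehicle libraries. The log2 fold change, sexes averaged, was -0.29 ± 0.05 (SE; limma-trend fitted to all genes, adjusted p = 4.62e-05). In this comparison 11.7% of all tested genes were called (7.05% higher, 4.65% lower), 1 of the 8 members was, and the median log2 fold change of the 8 was -0.02. Of the 5 olfactory bulb markers 0 were called, with a median of -0.18. Within a sex it was -0.34 ± 0.07 in males (adjusted p = 0.00217; 2.3% of genes called) and -0.24 ± 0.07 in females (adjusted p = 0.0224; 6.62% called). The sexes averaged, it was called in each of 12 other settings and in each of 19 fits that left out 1 library. In females alone the adjusted p reached 0.0604 without lithium replicate 1, 0.0581 without lithium replicate 2, 0.0694 without lithium replicate 4 and 0.0701 without vehicle replicate 3.

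Under fluoxetine, WT libraries had 7674, 8672 and 10053 normalised counts of Cspg5 (lowest, median and highest of 10), against 8954, 9769 and 10679.8 in the 10 WT vehicle libraries. The groups overlapped. The log2 fold change was -0.16 ± 0.05 (limma-trend, adjusted p = 0.0293), in a comparison that called 5.18% of all genes (3.19% higher, 1.99% lower) and 1 of the 8 members, whose median was -0.05. The olfactory bulb markers had a median of -0.70, with 0 of 5 called. The adjusted p was 0.0907 with the compared groups alone, 0.159 (log2 -0.11) without the most olfactory libraries, and above 0.05 in 7 of 20 fits that left out 1 library. Those libraries were WT fluoxetine females 2 and 4 (0.0612 and 0.0634), WT fluoxetine males 2 and 3 (0.0523 and 0.0746), WT vehicle female 3 (0.0664) and WT vehicle males 3 and 4 (0.0596 and 0.0535). Within a sex Cspg5 was not called under fluoxetine in WT mice. Males had 0 members and 1.03% of genes called, and females 1 member (Cspg4) and 12.1% of genes. Mean log2 values of Cspg5 were 13.07 under fluoxetine and 13.29 under vehicle in males, and 13.08 and 13.19 in females. Lithium and fluoxetine share the vehicle libraries. Set directly against fluoxetine in WT mice, lithium gave a Cspg5 difference of -0.13 ± 0.05 (adjusted p = 0.296), with 0.233% of genes and 0 members called (1 member at an unadjusted p under 0.05; 0 by edgeR).

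In HT mice Cspg5 did not pass the test under either drug. HT lithium libraries had 7989.8, 9033 and 10086 normalised counts (lowest, median and highest of 9), HT fluoxetine libraries 8165, 9042 and 9865 (of 10) and HT vehicle libraries 8232, 9124 and 10331 (of 8), so the 3 groups overlapped. The log2 fold changes were 0.00 ± 0.05 for lithium (95% interval -0.10 to 0.11) and 0.01 ± 0.05 for fluoxetine (-0.09 to 0.11). The difference of the lithium responses, HT minus WT, was 0.30 ± 0.07 with adjusted p = 0.169, and 0.0166% of genes and 0 members were called (1 at an unadjusted p under 0.05; 0 by edgeR). It was called with the olfactory level as a covariate (0.29, adjusted p = 0.00755) and without the most olfactory libraries (0.35, adjusted p = 0.00864). The first of these fits called 8 of all genes and the second 902, against 3 as reported. The second kept only HT lithium females 1 and 5 of their group, and female 5 is a library that stands apart. For fluoxetine the difference of responses was 0.17 ± 0.07 (adjusted p = 0.99994), with 0% of genes and 0 members called (1 member at an unadjusted p under 0.05; 0 by edgeR).

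Over the 12 groups Cspg5 was highest in WT vehicle males and lowest in WT lithium females, a ratio of means of 1.28. In HT mice Cspg5 averaged 9341 ± 345 in lithium males, 8841 ± 812 in lithium females, 9091 ± 667 in fluoxetine males, 9104 ± 376 in fluoxetine females, 8840.2 ± 595 in vehicle males and 9294 ± 881 in vehicle females (± SD; n as listed for each group). WT means of Cspg5 were 7964 ± 497 in lithium males, 7869.9 ± 185 in lithium females, 8627 ± 626 in fluoxetine males, 8705 ± 836 in fluoxetine females, 10057 ± 701 in vehicle males and 9332 ± 431 in vehicle females. Of the 11 pairs of neighbours in this order, 9 differed by less than the larger of their SDs.

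Cspg4 (ENSMUSG00000032911, chromosome 9, 56865033 to 56899870, plus strand) encodes NG2, the proteoglycan core protein by which these progenitors are often stained. It was higher in HT mice given lithium than in HT mice given vehicle. HT lithium males had 769, 698, 707 and 839 normalised counts and HT lithium females 784, 658, 620.2, 639 and 737. HT vehicle males had 540.0, 643 and 545 and HT vehicle females 409, 526, 528, 508 and 595. Within each sex the lithium and vehicle libraries did not overlap, and 7 of the 9 lithium libraries lay above all 8 vehicle libraries. Within HT males alone Cspg4 was not called, and 0 members and 0.0166% of all genes were. How many of all genes lacked overlap was not counted. The log2 fold change, sexes averaged, was 0.41 ± 0.11 (limma-trend, adjusted p = 0.0116), in a comparison that called 9.77% of all genes (5.06% higher, 4.7% lower) and 1 of the 8 members, whose median was 0.06. Without the 2 libraries that stand apart it was 0.35 (adjusted p = 0.042). After a correction for GC content and transcript length it was 0.22 (adjusted p = 0.245) and no longer called.

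In WT mice the females showed the same direction. Cspg4 was 769.7, 659, 664 and 781 in WT lithium females and 676, 911, 769, 576 and 668 in WT fluoxetine females, against 448, 446, 546, 481 and 454 in WT vehicle females. Neither drug group overlapped the vehicle group, which both comparisons share. The log2 fold changes were 0.60 ± 0.15 for lithium (adjusted p = 0.00835) and 0.59 ± 0.14 for fluoxetine (adjusted p = 0.00387), where 6.62% and 12.1% of all genes were called. With the GC and length correction they were 0.40 (adjusted p = 0.0970) and 0.35 (adjusted p = 0.117), and fluoxetine also lost its call with the compared groups alone (adjusted p = 0.0582). WT males overlapped: 778, 603, 575, 712 and 615 under lithium and 688, 707, 529, 769 and 726 under fluoxetine, against 594, 688, 657, 787 and 688 under vehicle. Their log2 fold changes were -0.06 ± 0.14 and -0.00 ± 0.14.

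The difference between the sexes, males minus females, was -0.66 ± 0.20 for lithium in WT mice (adjusted p = 0.278; 0% of genes called) and -0.59 ± 0.20 for fluoxetine (adjusted p = 0.0519; 7.74% called). The fluoxetine difference was called by edgeR (adjusted p = 0.0479), with array weights (0.0020), with the olfactory covariate (0.0262), without the libraries apart (0.0435) and in 6 of 20 fits that left out 1 library. Those were the fits without WT fluoxetine females 4 and 5, WT fluoxetine males 4 and 5, WT vehicle female 3 or WT vehicle male 1. It was not called in the other 14 of these fits or under the 8 remaining settings, and it was smallest with the GC and length correction (-0.32, adjusted p = 0.372). Leaving out the most olfactory libraries gave -0.54 (adjusted p = 0.300). With the sexes averaged, Cspg4 in WT mice did not pass the test under lithium (0.27 ± 0.10, adjusted p = 0.074) or fluoxetine (0.29 ± 0.10, adjusted p = 0.0683). In HT females the lithium call (adjusted p = 0.0371, 10.5% of genes called) ended without the 2 libraries apart (0.32, adjusted p = 0.175). It also ended with the compared groups alone (0.0664), array weights (0.0570) and the GC and length correction (0.491), and in 6 of 10 fits that left out 1 library, namely HT lithium females 1 and 5 or HT vehicle females 1, 2, 3 and 4.

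Cspg4 is also expressed by pericytes, so the pericyte list is given beside it. In HT mice under lithium 0 of its 10 genes were called, their median log2 fold change was 0.17, and their mean log2 level ran from 8.31 to 8.74 in HT lithium libraries and from 8.24 to 8.56 in HT vehicle libraries. None of the 10 was at 0 in any library. In WT females the level ran from 8.33 to 8.63 under lithium and from 8.31 to 8.61 under fluoxetine, against 8.06 to 8.51 under vehicle. Over libraries, with group means removed, the r of Cspg4 with the pericyte level was -0.16 (n = 56). The slope of log2 values on GC content per 10 percentage points, a property of each library as a whole, averaged 0.06 in HT lithium males and 0.05 in HT lithium females, against -0.07 in HT vehicle males and -0.04 in HT vehicle females. In WT females it averaged -0.01 under lithium and 0.09 under fluoxetine, against -0.06 under vehicle. In WT males it averaged -0.02 under lithium and -0.05 under fluoxetine, against 0.06 under vehicle. The r of Cspg4, whose transcript has 59.2% GC, with this slope was 0.53 (0.41 with group means removed). The part of pericytes and of this slope in the Cspg4 differences was not tested beyond the correction given.

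The highest group for Cspg4 was HT lithium males and the lowest WT vehicle females, with a ratio of means of 1.59, the widest among the 8. In HT mice Cspg4 averaged 753 ± 65.5 in lithium males, 688 ± 69.9 in lithium females, 617 ± 160.5 in fluoxetine males, 572 ± 153 in fluoxetine females, 576 ± 58.4 in vehicle males and 513 ± 67.1 in vehicle females. WT means of Cspg4 were 657 ± 85.3 in lithium males, 719 ± 66.0 in lithium females, 684 ± 91.8 in fluoxetine males, 720.0 ± 127 in fluoxetine females, 683 ± 69.7 in vehicle males and 475 ± 42.3 in vehicle females. Each of the 11 neighbouring pairs in this order differed by less than the smaller of their SDs. HT fluoxetine libraries fell into 2 ranges, 447 to 464 in 5 of them and 662 to 766 in the other 5, in both sexes. HT minus WT under fluoxetine was -0.27 ± 0.10 (adjusted p = 0.34), and lithium minus fluoxetine in HT mice 0.31 ± 0.10 (adjusted p = 0.126).

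**Figure D2:**
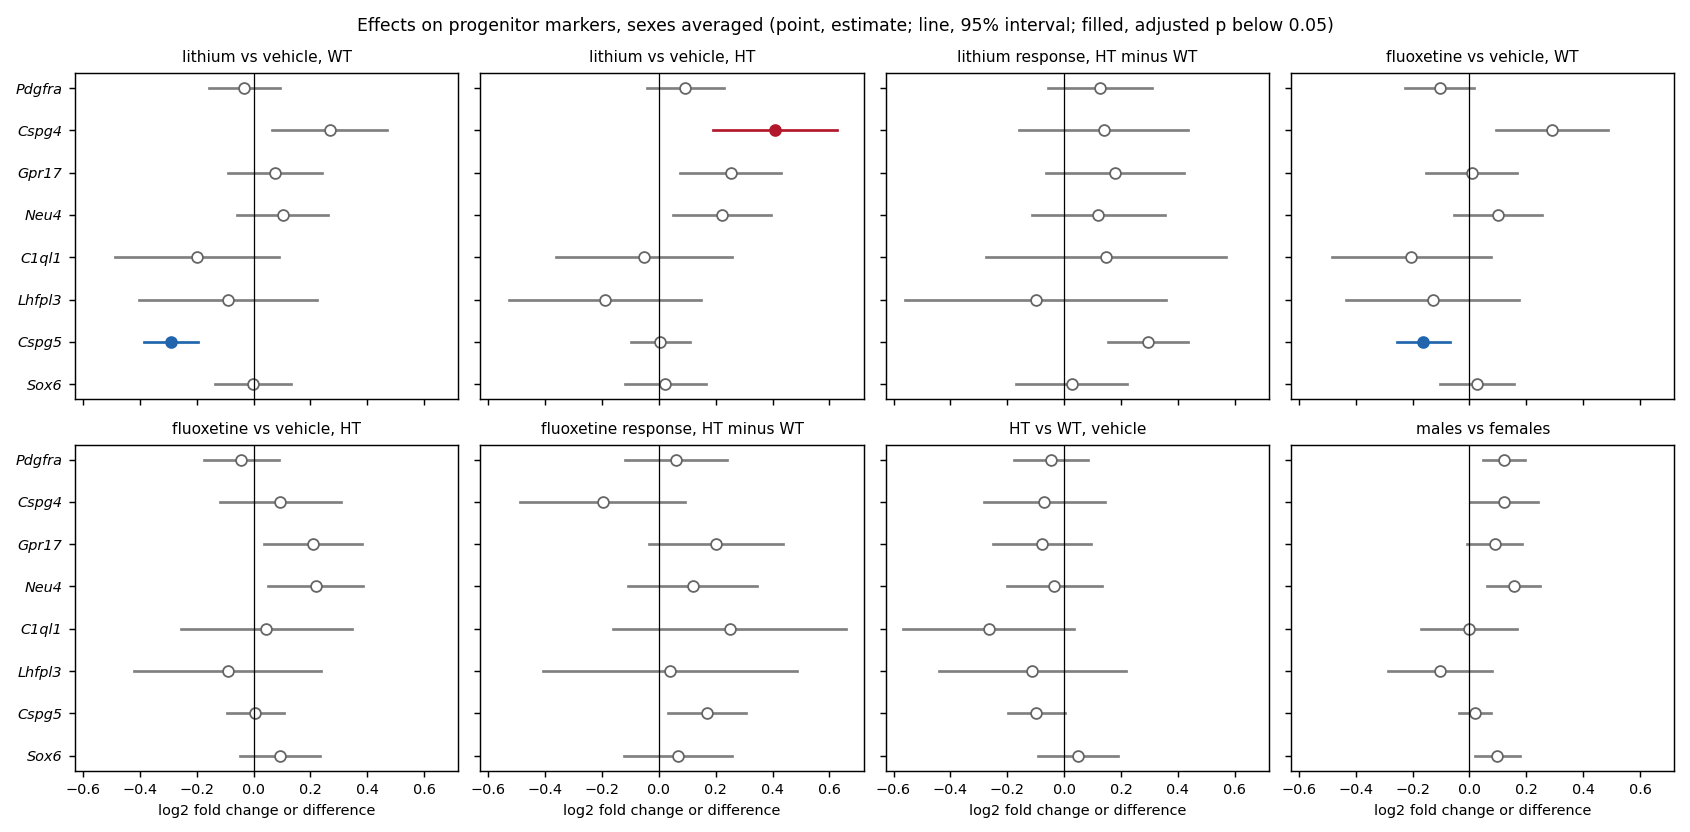
Log2 fold changes or differences of responses (horizontal axis) of the 8 genes (vertical axis) in 8 comparisons, sexes averaged, with 95% intervals, and filled points where the adjusted p over all genes is below 0.05. Cspg5 is filled at -0.29 for lithium and -0.16 for fluoxetine in WT mice, Cspg4 at 0.41 for lithium in HT mice, and no other point is filled.

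Gpr17 (ENSMUSG00000052229, chromosome 18, 31942997 to 31949636, minus strand) encodes a G-protein-coupled receptor of committed precursors that restrains their maturation. HT lithium females had 4106, 3107, 2845, 3006 and 3693 normalised counts and HT vehicle females 2667, 1817, 2501, 2352 and 2926. The groups overlapped in part, through lithium replicate 3 and vehicle replicate 5. The log2 fold change was 0.45 ± 0.11 (limma-trend, adjusted p = 0.00546), and 0.45 (adjusted p = 0.0188) without the libraries apart. It was not called with the compared groups alone (adjusted p = 0.0980) or the GC and length correction (0.32, adjusted p = 0.0737). HT lithium males had 3676, 2809, 3527 and 3866 and HT vehicle males 3446, 3437 and 3104, a log2 fold change of 0.05 ± 0.14 (adjusted p = 0.919; 0.0166% of genes and 0 members called, 1 member at an unadjusted p under 0.05 and 0 by edgeR). The difference between the sexes was -0.40 ± 0.18 (adjusted p = 0.487; 0.172% of genes called).

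With the sexes averaged, Gpr17 under lithium in HT mice was 0.25 ± 0.09 (adjusted p = 0.0583), and each of the 9 lithium libraries lay above the median of the 8 vehicle libraries. That median pools both sexes. Within males the lowest lithium library (2809) lay below all vehicle libraries (3104 to 3446). Gpr17 was called without the most olfactory libraries (0.39, adjusted p = 0.00441) and with the olfactory covariate (0.26, adjusted p = 0.0375). The first of these fits kept only HT lithium females 1 and 5 of their group, and female 5 is a library that stands apart. Gpr17 was also called with HT lithium female 3 (0.0364), HT lithium female 4 (0.0498), HT lithium male 2 (0.0283) or HT vehicle female 5 (0.0289) left out. Under fluoxetine in HT mice Gpr17 was 0.21 ± 0.09 (adjusted p = 0.553), and in WT mice it was 0.07 ± 0.08 under lithium and 0.01 ± 0.08 under fluoxetine. In HT mice Gpr17 averaged 3469 ± 462 in lithium males, 3351 ± 529 in lithium females, 3636 ± 378 in fluoxetine males, 2979 ± 212 in fluoxetine females, 3329 ± 195 in vehicle males and 2453 ± 414 in vehicle females. WT means of Gpr17 were 2879.9 ± 378 in lithium males, 3492 ± 359 in lithium females, 2885 ± 433 in fluoxetine males, 3175 ± 236 in fluoxetine females, 3198 ± 399 in vehicle males and 2839 ± 355 in vehicle females. The highest and lowest groups were HT fluoxetine males and HT vehicle females (ratio 1.48), and each of the 11 neighbouring pairs differed by less than the larger of their SDs. On the opposite strand Gpr17 overlaps Lims2, which ranged from 269.7 to 515 normalised counts. The r of Lims2 with Gpr17 over libraries was 0.54. Other members overlap measured genes too: Lhfpl3 overlaps 6030443J06Rik (same strand) and A930003O13Rik (opposite strand), and Cspg5 overlaps Gm43622 (opposite strand). The library kit keeps strand, but whether the counting used it is not stated.

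Neu4 (ENSMUSG00000034000, chromosome 1, 94020451 to 94028334, plus strand) encodes a sialidase, an enzyme that removes sialic acids from glycoconjugates. HT lithium females had 374, 316, 295, 325 and 373 normalised counts and HT vehicle females 263, 249, 275, 282 and 281. These groups did not overlap, but the log2 fold change of 0.31 ± 0.11 missed the threshold (adjusted p = 0.0535). Neu4 was called here with the olfactory covariate (0.33, adjusted p = 0.0301), without the most olfactory libraries (0.46, adjusted p = 0.00738) and without HT lithium female 3 (adjusted p = 0.0371). Without the most olfactory libraries only HT lithium females 1 and 5 were left in that group. The olfactory covariate raised the number of members called in these females to 4, against 2 as reported, by adding Neu4 and Pdgfra (0.24, adjusted p = 0.0480) to Cspg4 and Gpr17. As reported, 10.5% of all genes were called in these females. With the sexes averaged the covariate also raised the number of all genes called for lithium in HT mice, from 1761 to 2844. With array weights Pdgfra (0.24, adjusted p = 0.0278), Gpr17 and Cspg5 (-0.17, adjusted p = 0.0236) were called in these females and Cspg4 was not. In WT females under fluoxetine array weights called Neu4 (0.33, adjusted p = 0.0238) beside Cspg4. HT lithium males had 356, 309.9, 371 and 334 and HT vehicle males 364, 329 and 255, which overlapped. Sexes averaged, Neu4 in HT mice was 0.22 ± 0.09 under lithium (adjusted p = 0.0895) and 0.22 ± 0.08 under fluoxetine (adjusted p = 0.488). The lithium value was called only without the most olfactory libraries (0.30, adjusted p = 0.00841) among 12 other settings. Each of the 9 lithium and each of the 10 fluoxetine libraries of HT mice lay above the median of the 8 HT vehicle libraries that both comparisons share. That median pools 3 males and 5 females. Within males both drug groups overlapped the vehicle group (299.8 to 478.7 under fluoxetine, 254.6 to 363.6 under vehicle). Within females the lowest fluoxetine library (281.86) lay below the highest vehicle library (282.08).

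In HT mice Neu4 averaged 343 ± 26.7 in lithium males, 337 ± 35.7 in lithium females, 397 ± 69.4 in fluoxetine males, 291 ± 11.8 in fluoxetine females, 316 ± 55.7 in vehicle males and 269.9 ± 13.9 in vehicle females. WT means of Neu4 were 333 ± 55.0 in lithium males, 310.2 ± 20.3 in lithium females, 321 ± 33.3 in fluoxetine males, 321 ± 51.3 in fluoxetine females, 317 ± 36.7 in vehicle males and 281 ± 28.2 in vehicle females. Gpr17 and Neu4 had the same highest group (HT fluoxetine males) and the same lowest (HT vehicle females), with a ratio of 1.47 for Neu4, and each of the 11 neighbouring pairs of Neu4 differed by less than the larger of their SDs. In WT mice Neu4 was 0.10 ± 0.08 under lithium and 0.10 ± 0.08 under fluoxetine, with adjusted p of 0.447 and 0.508.

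The fluoxetine comparison in HT mice called 0 of 8 members and 0% of all genes by limma-trend, with 2 members (Gpr17 and Neu4) and 1307 genes at an unadjusted p under 0.05, and 0 members and 0 genes by edgeR. For the 8 members the median log2 fold change was 0.07. Within males it called 0 members and 0% of genes, and within females 0 members and 0.727% of genes, with 1 member at an unadjusted p under 0.05 in each sex and 0 by edgeR. With array weights 1 member was called within females, Gpr17 (0.33, adjusted p = 0.0480). The difference between the sexes called 0 members and 0.0277% of genes, with 0 members at an unadjusted p under 0.05 and 0 by edgeR.

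Pdgfra (ENSMUSG00000029231, chromosome 5, 75152292 to 75198215, plus strand) encodes the receptor for PDGF-A, the main mitogen of these cells. Its libraries ranged from 1461 to 2294 normalised counts with a median of 1828, and the ratio of the highest to the lowest group mean, 1.23, was the smallest of the 8. In HT mice Pdgfra averaged 1952 ± 218 in lithium males, 1959 ± 231 in lithium females, 1885 ± 205 in fluoxetine males, 1668 ± 17.6 in fluoxetine females, 2001 ± 221 in vehicle males and 1673 ± 154 in vehicle females. WT means of Pdgfra were 1859.8 ± 230.0 in lithium males, 1837 ± 146 in lithium females, 1892 ± 137 in fluoxetine males, 1631 ± 184 in fluoxetine females, 1938 ± 168 in vehicle males and 1839 ± 145 in vehicle females. Of the 11 neighbouring pairs 10 differed by less than the larger of their SDs. Pdgfra passed the test in none of the 12 comparisons with the sexes averaged. Its log2 fold change was 0.09 ± 0.07 (95% interval -0.04 to 0.23) for lithium in HT mice and -0.03 ± 0.06 (-0.16 to 0.09) in WT mice. For fluoxetine it was -0.04 ± 0.07 (-0.18 to 0.09) in HT mice and -0.10 ± 0.06 (-0.23 to 0.02) in WT mice. Within females, lithium in HT mice gave 0.22 ± 0.09 (adjusted p = 0.0845), from libraries at 2014, 2294, 1936, 1651 and 1899.8 under lithium and 1651, 1547, 1937, 1584 and 1648 under vehicle, which overlapped. Pdgfra was called here with array weights, with the olfactory covariate, and without HT lithium female 4 (0.28, adjusted p = 0.0342) or HT vehicle female 3 (0.28, adjusted p = 0.0467).

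Sox6 (ENSMUSG00000051910, chromosome 7, 115470872 to 116038796, minus strand) encodes a SOX transcription factor that holds progenitors in an immature state. Its 56 libraries ranged from 530.0 to 828.6 normalised counts with a median of 666. In HT mice Sox6 averaged 711 ± 17.9 in lithium males, 638 ± 63.3 in lithium females, 763 ± 72.1 in fluoxetine males, 658 ± 64.0 in fluoxetine females, 696 ± 85.0 in vehicle males and 634 ± 59.4 in vehicle females. WT means of Sox6 were 603 ± 28.9 in lithium males, 677 ± 56.7 in lithium females, 694 ± 77.8 in fluoxetine males, 619 ± 88.1 in fluoxetine females, 659 ± 65.3 in vehicle males and 626 ± 75.6 in vehicle females. Under lithium, the HT males (732, 691, 702 and 718) lay above the WT males (603, 570.0, 584, 615 and 645) without overlap. Within males this difference was not tested, and how many of all genes lacked overlap was not counted. The females overlapped, at 572 to 725 in HT and 629 to 759 in WT mice. With the sexes averaged HT minus WT under lithium was 0.08 ± 0.07 (adjusted p = 0.718), and Sox6 passed the test in none of the 12 comparisons. The drug effects lay between -0.00 ± 0.07 (lithium in WT mice) and 0.09 ± 0.07 (fluoxetine in HT mice), and each of the 11 neighbouring pairs of groups differed by less than the larger of their SDs.

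C1ql1 (ENSMUSG00000045532, chromosome 11, 102939264 to 102946688, minus strand) encodes a secreted C1q-like protein, a ligand of an adhesion receptor at synapses. Its libraries ranged from 158 to 462 normalised counts with a median of 253. In HT mice C1ql1 averaged 241 ± 64.3 in lithium males, 249 ± 61.2 in lithium females, 267 ± 39.96 in fluoxetine males, 254 ± 78.3 in fluoxetine females, 258 ± 14.2 in vehicle males and 241 ± 54.1 in vehicle females. WT means of C1ql1 were 280.5 ± 65.9 in lithium males, 247 ± 46.5 in lithium females, 221 ± 34.0 in fluoxetine males, 308 ± 57.5 in fluoxetine females, 317 ± 90.8 in vehicle males and 291 ± 57.6 in vehicle females. The spread within groups was wide, and each neighbouring pair in the order of groups differed by less than the smaller of their SDs. C1ql1 passed no test with the sexes averaged. Its log2 fold change was -0.05 ± 0.15 for lithium in HT mice, -0.20 ± 0.14 for lithium in WT mice, 0.04 ± 0.15 for fluoxetine in HT mice and -0.20 ± 0.14 for fluoxetine in WT mice. In WT males fluoxetine gave -0.49 ± 0.20 (adjusted p = 0.202; 1.03% of genes and 0 members called, 2 members at an unadjusted p under 0.05 and 0 by edgeR), from 191, 234, 204, 200.1 and 274 under fluoxetine and 329, 216, 298, 462 and 282 under vehicle, which overlapped. In these males Cspg5 (-0.22, adjusted p = 0.0744) was called with array weights (adjusted p = 0.00743), with the olfactory covariate (-0.29, adjusted p = 7.79e-04), without the libraries apart (0.0441), without the most olfactory libraries (0.0455), and without WT fluoxetine male 5 (0.0472) or WT vehicle male 1 (0.0372).

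Lhfpl3 (ENSMUSG00000106379, chromosome 5, 22746059 to 23275597, plus strand) encodes a tetraspan membrane protein of the LHFPL family. Its libraries ranged from 471 to 1375 normalised counts with a median of 795, and within single groups it varied up to the 588 to 1375 of WT fluoxetine females. In HT mice Lhfpl3 averaged 666 ± 33.8 in lithium males, 854 ± 284 in lithium females, 838 ± 256 in fluoxetine males, 767 ± 95.9 in fluoxetine females, 839 ± 132 in vehicle males and 867 ± 234 in vehicle females. WT means of Lhfpl3 were 827 ± 146 in lithium males, 902 ± 197 in lithium females, 766 ± 137 in fluoxetine males, 966 ± 368 in fluoxetine females, 916 ± 194 in vehicle males and 932 ± 212 in vehicle females. It passed the test in none of the 12 comparisons, and each neighbouring pair in the order of groups differed by less than the larger of their SDs. Without the most olfactory libraries it was called lower under lithium in HT mice (-0.39, adjusted p = 0.0158) and under fluoxetine in WT mice (-0.38, adjusted p = 0.0253). With all libraries these values were -0.19 ± 0.17 and -0.13 ± 0.15, and with the olfactory covariate -0.12 and 0.02.

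Lhfpl3 followed the olfactory level closely across libraries. Pearson's r was 0.89 and Spearman's rho 0.91 (n = 56; permutation p = 1e-05 for both, the smallest that 100000 permutations can give; adjusted p = 1.2e-04 and 9.0e-05 over 36 relations). It was 0.87 within males, 0.91 within females, 0.91 with group means removed, and 0.88 without the 2 libraries farthest from the median olfactory level. Within the 14 most olfactory libraries it was 0.79 and within the other 42 it was 0.80. Sox6 went the opposite way (r = -0.65, rho = -0.64, permutation p = 1e-05, adjusted p = 1.2e-04; -0.69 within males and -0.58 within females). Cspg5 did so too (r = -0.48, rho = -0.50, permutation p = 2.3e-04 and 1.1e-04, adjusted p = 0.00104 and 5.4e-04; -0.37 within males and -0.58 within females). Within the most olfactory libraries the r of Cspg5 was -0.26, and within the others -0.19. C1ql1 was higher where the olfactory level was higher (r = 0.48, rho = 0.51, permutation p = 2.3e-04 and 1.1e-04, adjusted p = 0.00104 and 5.4e-04; 0.52 within males and 0.46 within females). For Pdgfra, Cspg4, Gpr17 and Neu4 r lay between -0.22 and -0.01 over all libraries. For Pdgfra it was -0.83 within the 14 most olfactory libraries and 0.09 within the other 42. Without the 2 farthest libraries r was -0.62 for Sox6, -0.43 for Cspg5 and 0.46 for C1ql1.

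**Figure D3:**
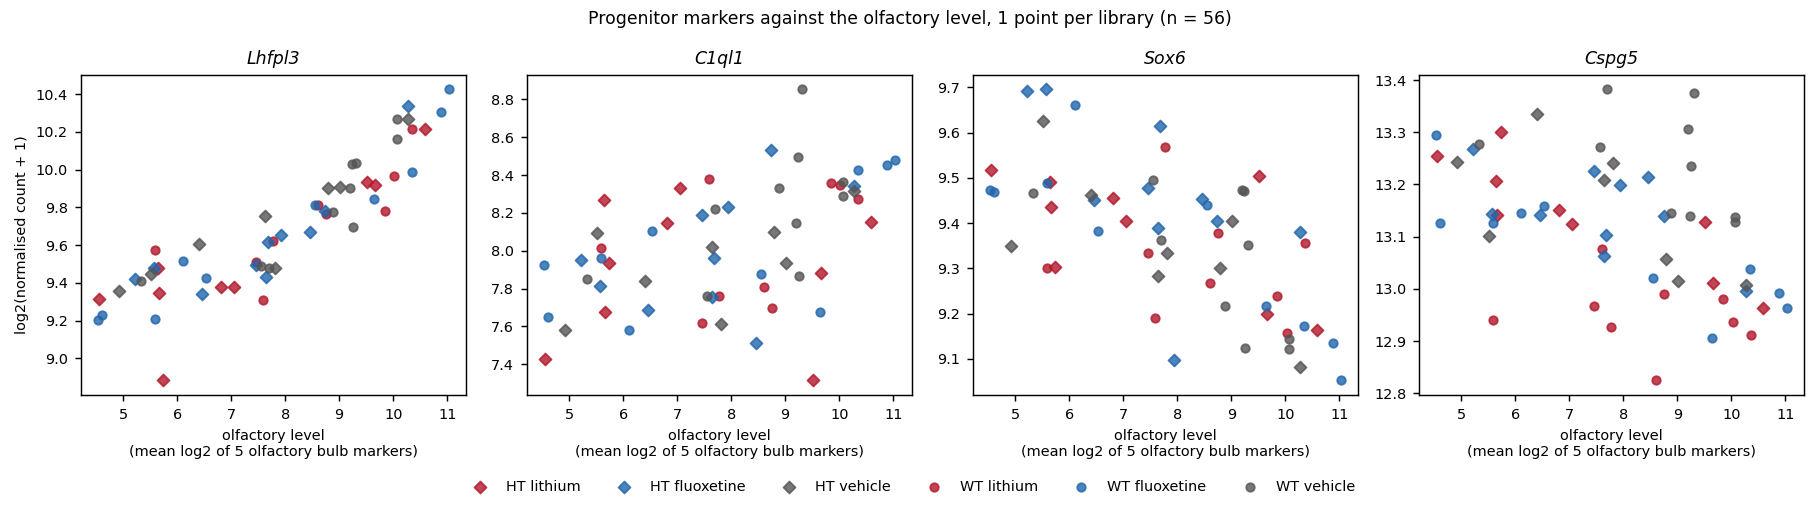
Log2(normalised count + 1) of Lhfpl3, C1ql1, Sox6 and Cspg5 (vertical axes, not from 0) against the olfactory level (horizontal axis), with 1 point per library, coloured by drug and shaped by genotype. Lhfpl3 rises along the axis (r = 0.89), C1ql1 less so (0.48), while Sox6 (-0.65) and Cspg5 (-0.48) decline, and the WT lithium points of Cspg5 all lie below the WT vehicle points.

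Among themselves the 8 genes did not vary as 1 block. Over the 28 pairs, r across libraries ran from -0.53 to 0.68 with a median of 0.16, and 18 were positive. Gpr17 and Neu4 were the closest pair (r = 0.68, rho = 0.70, permutation p = 1e-05, adjusted p = 1.2e-04; 0.66 within males, 0.70 within females, 0.60 with group means removed). Cspg4 and Neu4 came next (r = 0.57, rho = 0.60, permutation p = 2e-05 and 1e-05, adjusted p = 1.8e-04 and 9.0e-05; 0.41 within males and 0.68 within females). Without the 2 farthest libraries these values of r were 0.68 and 0.52. Cspg4 and Gpr17 (0.46), Neu4 and Sox6 (0.43), Pdgfra and Sox6 (0.42), Pdgfra and Neu4 (0.42), and C1ql1 and Lhfpl3 (0.48) were also positive, with adjusted p up to 0.00350. Lhfpl3 ran against Sox6 (-0.53, adjusted p = 2.88e-04) and Cspg5 (-0.47, adjusted p = 0.00104), and C1ql1 ran against Sox6 (-0.43, adjusted p = 0.00285). With group means removed the value for Lhfpl3 and Cspg5 was -0.73, but within the most olfactory libraries it was 0.06 and within the others -0.21. In the same 2 sets Lhfpl3 and Sox6 had -0.30 and -0.18, C1ql1 and Sox6 -0.61 and -0.24, and Pdgfra and Sox6 0.72 and 0.20. Gpr17 and Neu4 had 0.47 and 0.74 there, and Cspg4 and Neu4 0.74 and 0.50. With the mean of the 24 genes of the progenitor lineage list, group means removed, r was 0.58 for C1ql1, 0.51 for Gpr17, 0.33 for Lhfpl3, 0.32 for Neu4 and 0.28 for Cspg4, but -0.07 for Pdgfra and -0.19 for both Cspg5 and Sox6. These r describe the 56 libraries and were planned without p. The permutations, here and for the olfactory level, shuffled all libraries freely. Their p therefore take no account of genotype, drug, sex or litter.

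**Figure D4:**
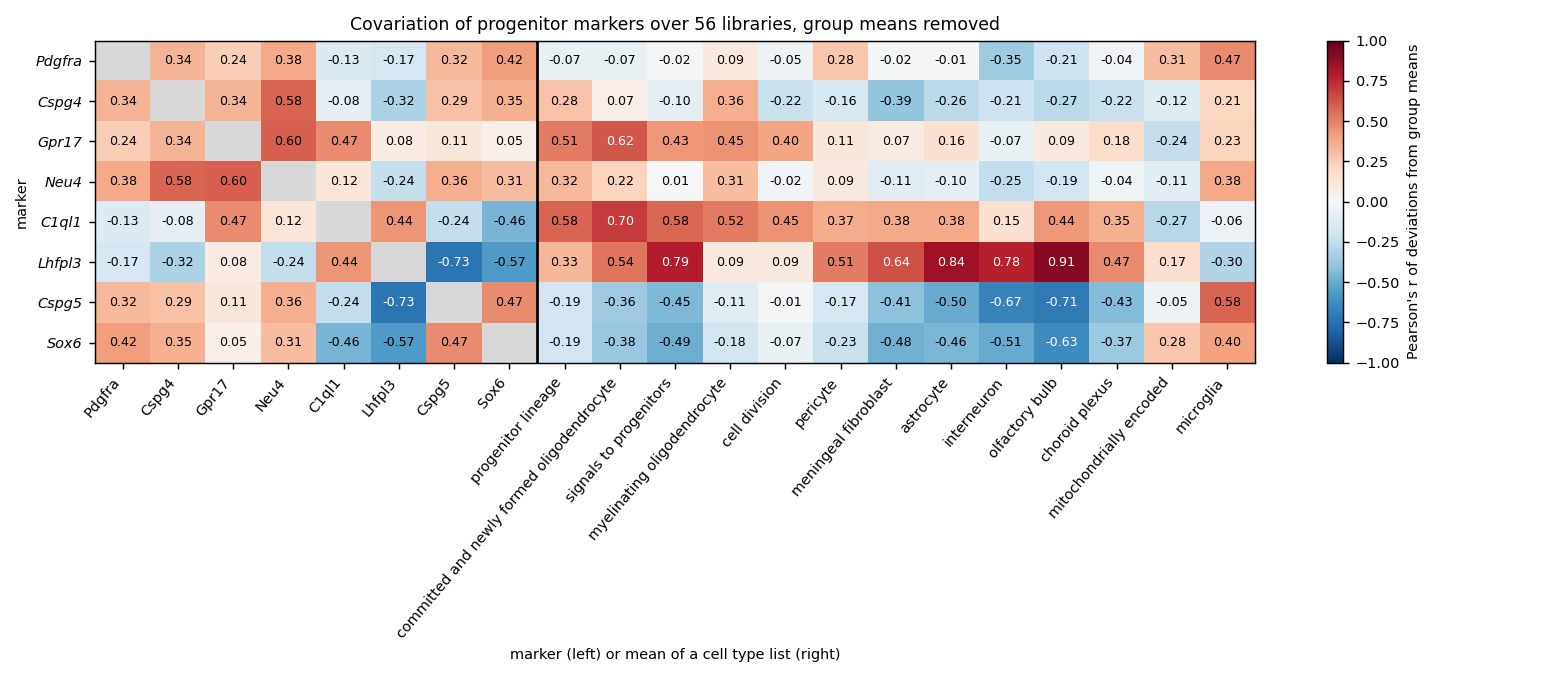
Pearson's r (colour and number) over 56 libraries, group means removed, between each of the 8 genes (rows) and the other members or the mean of each gene list (columns). Lhfpl3 is at 0.91 with the olfactory bulb list and -0.73 with Cspg5, and Gpr17 with Neu4 is at 0.60.

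The genes whose pattern over the 56 libraries was most like that of each member, by r of log2 values among all tested genes, also differed. For Lhfpl3 they were Isoc1 (0.95), Tmem255a (0.94) and Dcx (0.94), the last being doublecortin, a marker of migrating immature neurons. Itpr2 (0.70), Nectin1 (0.67) and Prex1 (0.66) were nearest to Gpr17, and Itpr2 is itself on the list of committed and newly formed oligodendrocytes. Those nearest to Neu4 were Ltbp4 (0.64), Robo4 (0.61) and Mast1 (0.60), and to Cspg4 Mast1 (0.77), Lrp1 (0.76) and Ciz1 (0.75). Pdgfra was nearest to Ptprb (0.76), Epb41l2 (0.70) and Mertk (0.64). Sox6 had Tnr (0.72), an extracellular matrix gene of the progenitor lineage list, Slc1a2 (0.72), the glutamate transporter of astrocytes, and Tbc1d5 (0.71). Cspg5 had Golga7b (0.82), Cenpb (0.81) and Nr2f1 (0.80), and C1ql1 had Efnb3 (0.78), Hs3st1 (0.78) and Pou3f4 (0.78). The mean of the standardised 8 was nearest to Epb41l2 (0.67), Itpr2 (0.67), Hepacam (0.62), Plpp3 (0.61), Daam2 (0.60), Ltbp4 (0.60), Fads1 (0.59), Mfge8 (0.56), Hspa12b (0.56) and Laptm5 (0.56).

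For the allele alone, none of the 8 passed the test. HT against WT under vehicle called 0 members and 0% of all genes by limma-trend, with 0 members and 1119 genes at an unadjusted p under 0.05, and edgeR called 0 members and 1 gene. The lowest p of a member was that of Cspg5 (-0.10 ± 0.05, adjusted p = 0.781, 95% interval -0.20 to 0.00), followed by C1ql1 (-0.27 ± 0.15, 95% interval -0.57 to 0.04), and 7 of the 8 values were below 0, with a median of -0.07. Within males 0 members and 0.261% of genes were called (1 member at an unadjusted p under 0.05; 0 by edgeR), and within females 0 members and 0% of genes (0 and 0). With the olfactory covariate 1 member was called within males, Cspg5 (-0.24, adjusted p = 0.0280). Olfactory bulb markers had a median of -1.14, with 0 of 5 called. Under lithium 0% of genes and 0 members were called, 1 member had an unadjusted p under 0.05 and edgeR called 0. That member was Cspg5 (0.20 ± 0.05, adjusted p = 0.214). In HT lithium males it was 9778, 9033, 9098 and 9454, above all WT lithium males, while HT lithium females (8922, 8953, 8255, 7989.9 and 10086) overlapped with WT lithium females. Under lithium the genotypes were not tested within a sex. With the sexes averaged Cspg5 was called with array weights (0.16, adjusted p = 0.0461) and without the most olfactory libraries (0.25, adjusted p = 0.00827). Those fits called 81 and 828 of all genes, against 0 as reported. Under fluoxetine 0% of genes and 0 members were called (1 member, Cspg4, at an unadjusted p under 0.05; 0 by edgeR).

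Lithium set against fluoxetine in HT mice called 0.555% of genes and 0 members, with 2 members (Cspg4 and Pdgfra) at an unadjusted p under 0.05 and 0 by edgeR. For Pdgfra the difference was 0.14 ± 0.06 (adjusted p = 0.32). Males against females, over the 6 combinations of genotype and drug, called 0.283% of genes and 0 members, with 4 members at an unadjusted p under 0.05 and 0 by edgeR. Those were Neu4 (0.16 ± 0.05, adjusted p = 0.13), Pdgfra (0.12 ± 0.04, adjusted p = 0.135), Sox6 (0.10 ± 0.04, adjusted p = 0.272) and Cspg4 (0.12 ± 0.06, adjusted p = 0.376), and 6 of the 8 were higher in males by value. With array weights Pdgfra (adjusted p = 0.0310) and Neu4 (0.0244) were called. The mean olfactory level was lower in males than in females in 4 of the 6 combinations and its 5 markers had a median difference of -0.66.

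Of the 24 other progenitor lineage genes, the lithium comparison in WT mice called 0 higher and 1 lower, and their median log2 fold change was -0.04. Over all tested genes 7.05% were called higher and 4.65% lower in that comparison, 5.06% and 4.7% for lithium in HT mice, 3.19% and 1.99% for fluoxetine in WT mice, and 0% for fluoxetine in HT mice. The 1 lower gene was Sapcd2 (-0.49 ± 0.14, adjusted p = 0.0164). In HT mice lithium called 2 higher and 0 lower, with a median of 0.07: Bcan (0.31 ± 0.07, adjusted p = 0.00386), the proteoglycan brevican of the extracellular matrix, and Megf11 (0.50 ± 0.14, adjusted p = 0.0142). Fluoxetine called 0 of 24 in WT mice (median 0.01) and 0 of 24 in HT mice (median 0.05). In WT mice its smallest p were those of Emid1 (-0.42 ± 0.14, adjusted p = 0.0569) and Tnr (0.19 ± 0.07, adjusted p = 0.0882). The median over all tested genes was 0.00 for lithium in both genotypes and -0.01 for fluoxetine in WT mice.

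Among 17 genes of committed and newly formed oligodendrocytes, lithium called 0 higher and 1 lower in HT mice and likewise in WT mice, and both times the gene was Rras2, a RAS-family GTPase (-0.25 ± 0.08, adjusted p = 0.030 in HT; -0.32 ± 0.07, adjusted p = 0.00194 in WT). Fluoxetine called 0 in HT mice and, in WT mice, 0 higher and 1 lower, Enpp6 (-0.47 ± 0.14, adjusted p = 0.0397), a choline phosphodiesterase that marks oligodendrocytes that have just begun to differentiate. Their medians were -0.09 in HT and -0.07 in WT mice for lithium, and 0.04 in HT and -0.07 in WT mice for fluoxetine. The levels of Bmp4, Bcas1 and Tcf7l2, which mark the same stage, passed the test in neither genotype under either drug.

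The list of signals to progenitors holds ligands, receptors and targets that act on these cells. Of its 22 genes lithium called 2 higher and 1 lower in HT mice and likewise 2 and 1 in WT mice. Igf1r, the receptor through which IGF-1 acts on the lineage, was 0.24 ± 0.05 in HT (adjusted p = 5.45e-04) and 0.29 ± 0.04 in WT mice. Fgfr3, a fibroblast growth factor receptor also made by astrocytes, was 0.23 ± 0.07 in HT (adjusted p = 0.0301) and 0.19 ± 0.07 in WT mice (adjusted p = 0.0492). The lower gene was Pdgfc, a PDGF-family ligand of Pdgfra, in HT mice (-0.25 ± 0.08, adjusted p = 0.0271) and Id2, an inhibitor of differentiation, in WT mice (-0.20 ± 0.05, adjusted p = 0.0111). Fluoxetine in WT mice called 1 higher, Igf1r (0.19 ± 0.04, adjusted p = 0.00354), and 3 lower, Id2 (-0.24 ± 0.05), Id4 (-0.32 ± 0.08) and Gpr37 (-0.56 ± 0.14), and in HT mice it called 0.

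The 22 markers of myelinating oligodendrocytes, the cells that progenitors give rise to, were lower by median in each drug comparison. Lithium called 0 higher and 1 lower in HT mice (Tspan2, -0.58 ± 0.15; median of the list -0.32) and 0 and 1 in WT mice (Ppp1r14a, -0.81 ± 0.26; median -0.19). Fluoxetine called 0 in HT mice (median -0.04) and, in WT mice, 0 higher and 10 lower (median -0.58), among them Tspan2 (-0.72 ± 0.14), Ugt8a (-0.69 ± 0.17), Mog (-0.76 ± 0.20) and Opalin (-0.79 ± 0.21). In that comparison the 8 progenitor markers had a median of -0.05, and the 24 lineage genes 0.01. Of 16 genes of cell division lithium called 0 higher and 1 lower in HT mice (Pcna, -0.21 ± 0.05; median -0.24) and 0 in WT mice (median -0.23). Fluoxetine called 0 in HT mice (median -0.02) and 0 higher and 1 lower in WT mice (Cdk1, -0.72 ± 0.22; median -0.35). HT against WT under vehicle called 0 genes of each of these 5 lists. The medians were -0.08 for the lineage, -0.07 for committed cells, -0.06 for signals, -0.32 for myelination and -0.05 for division.

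**Figure D5:**
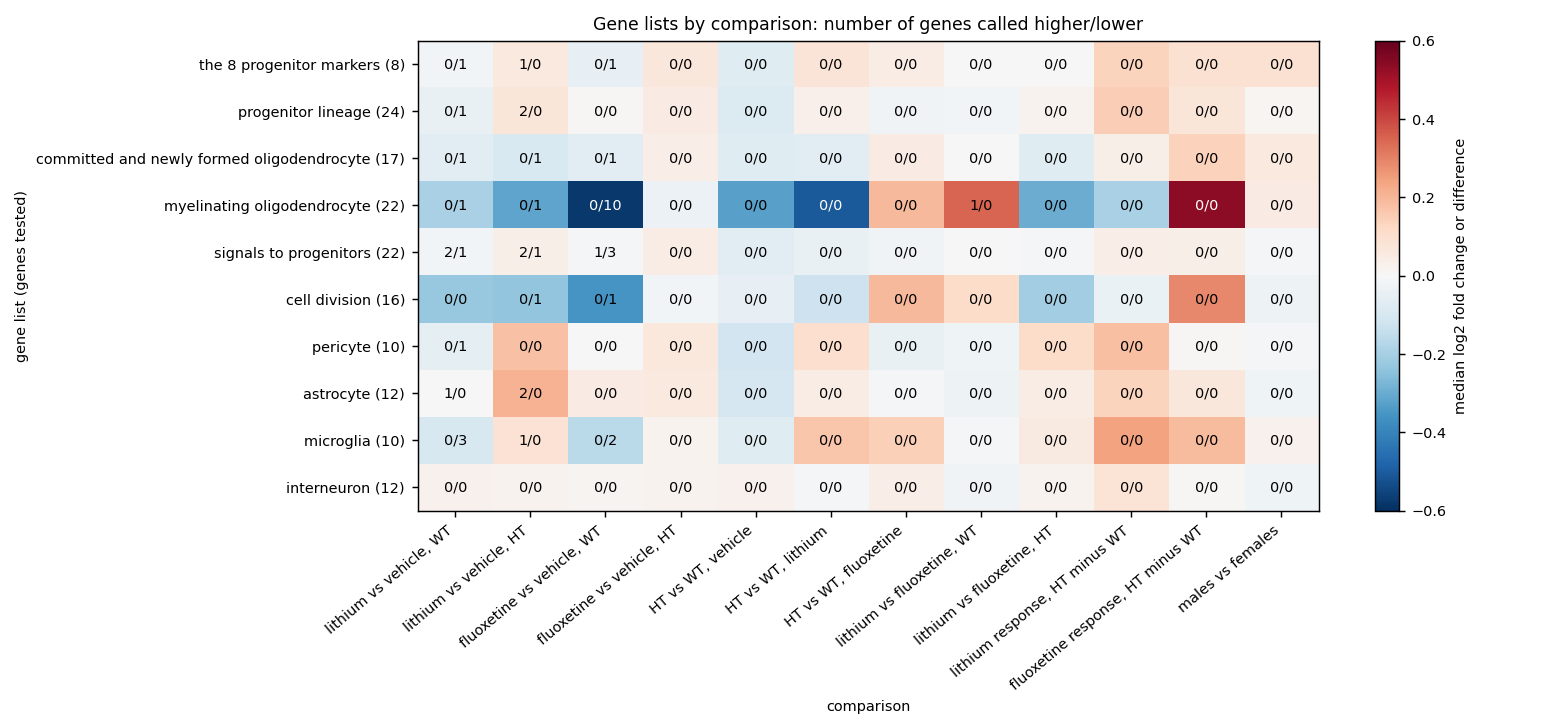
Median log2 fold change or difference (colour) and number of genes called higher/lower (text) for the 8 progenitor markers and 9 other gene lists (rows, with the number of genes tested) in the 12 comparisons with the sexes averaged (columns). The myelinating list reads 0/10 for fluoxetine against vehicle in WT mice, where the 8 markers read 0/1.

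Lists of other cell types are given for comparison. Astrocyte markers, whose cells also make Cspg5, had 2 of 12 called higher under lithium in HT mice (Acsbg1, 0.25 ± 0.06, and Aldoc, 0.26 ± 0.08; median 0.21) and 1 of 12 in WT mice (Gjb6, 0.43 ± 0.08; median 0.00). Interneuron markers, whose cells also make Sox6, had 0 of 12 called under either drug in either genotype, with medians from 0.02 to 0.03. Pericyte markers in WT mice had 0 higher and 1 lower of 10 under lithium (Pdgfrb, -0.24 ± 0.07; median -0.06) and 0 of 10 under fluoxetine (median 0.00). Microglia markers had 3 of 10 called lower under lithium in WT mice (among them P2ry13, -0.53 ± 0.10, and Cx3cr1, -0.26 ± 0.08; median -0.10). Under fluoxetine in WT mice 2 of the 10 were lower (among them P2ry13, -0.38 ± 0.09; median -0.16). In HT mice 1 of the 10 was called higher under lithium (Csf1r, 0.25 ± 0.08; median 0.09) and 0 under fluoxetine (median 0.02).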

How the data were processed

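RNA was sequenced from strand-specific TruSeq libraries of prefrontal cortex, per the labels' protocols. The deposited values are a signal: the authors divided each library's gene counts by its size factor. The submitters' processing notes name Salmon 0.11.2, R 3.6.0, DESeq2 1.19.11 and GRCm38, without roles. All values (100%) were whole multiples of a column's step within 1e-06, so reads were recovered. Of 59 columns 3 match no sample and were not used, and 1 of 57 samples has no column. No pair of libraries within a group agreed within sampling noise (105 pairs; smallest chi-square per degree of freedom 4.94). Log2(value + 1) of 18026 genes with at least 10 in at least 3 libraries were fitted with limma-trend (version 3.58.1 in R 4.3.3) on 12 group means with 44 residual degrees of freedom. Tests were two-sided, and a call is an adjusted p (Benjamini-Hochberg, all genes) under 0.05. Within a sex, HT against WT was tested under vehicle only. The share of all genes without overlap between groups was not counted, so statements on overlap are descriptions. The pseudocount understates fold changes of low genes. Recovered reads went through edgeR 4.0.16's quasi-likelihood test, which called 2168 genes for lithium and 922 for fluoxetine in WT mice, and 1802 and 0 in HT mice. Fits were tested on simulated data. Coordinates and lengths (longest transcript) are from the GENCODE annotation of GRCm38.

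The members and lists were chosen with earlier results of these data known. Named were the 8 members, Shank3, up to 4 called genes of a list (else 2 values) and the 3 genes (10 for the mean) most like each member, of which the text gives part. Bmp4, Bcas1 and Tcf7l2 were named after their values were seen. Same-numbered replicates of different groups did not deviate together (mean r 0.00135 over 289 pairs, -0.00038 over 1146 others).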

Additional observations from a re-analysis of the deposited data

Results flagged for a closer look

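In groups of 4 or 5 libraries, 6 of the 88 combinations of gene and group had 1 library far from the rest by Dixon's test, and chance gives about 1 in 20. Gpr17 was 2966 in HT fluoxetine male 5, against 3732 to 3867 in the others of its group, and 2610.3 in HT fluoxetine female 2, against 3016 to 3138. Lhfpl3 was 1291 in HT fluoxetine male 5, against 684 to 783, and that library is one of the most olfactory, with a level of 10.27. Neu4 was 312 in HT fluoxetine female 1, against 282 to 289. Sox6 was 547 in HT fluoxetine female 3, against 669 to 699.98. Pdgfra was 1937 in HT vehicle female 3, against 1547 to 1651. Of the 6, 5 lie in HT fluoxetine groups.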

How the results depend on the processing

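With the sexes averaged there were 96 member values, computed under 12 other settings and with libraries left out in turn. Of the resulting 1152 and 2384 values 0 turned round with a call, 24 gained a call, 10 lost one, 200 uncalled values changed sign and 3302 kept sign and side of the threshold. The number of the 8 members called for lithium in WT mice was 2 with the compared groups only or array weights, against 1 otherwise (leave-one-out 1 to 1). For lithium in HT mice it was 2 with the olfactory covariate, 4 on leaving out the most olfactory libraries and 0 after correcting for GC and length (leave-one-out 1 to 2, with 4 of 17 fits changed). For fluoxetine in WT mice it was 0 with the compared groups only and 2 with array weights or the olfactory covariate (leave-one-out 0 to 1, with 5 of 20 changed; without WT fluoxetine female 4 or male 3, Cspg4 was called and Cspg5 was not). Without the most olfactory libraries it stayed at 1, but that gene was Lhfpl3 and not Cspg5. HT against WT under lithium had 1 with array weights and also 1 when the most olfactory libraries were left out, HT against WT under fluoxetine 1 with array weights, lithium against fluoxetine in WT mice 1 without the most olfactory libraries, the difference of lithium responses 1 with the olfactory covariate and 1 without the most olfactory libraries, and males against females 2 with array weights, where 0 were called otherwise. The number of all genes called also changed in these fits. For lithium in HT mice it was 2844, 3042 and 418 in the order given, against 1761 as reported. For lithium in WT mice it was 3349 with array weights (2109 as reported). For fluoxetine in WT mice it was 421, 2877 and 3014 in the order given (933). HT against WT had 81 and 828 under lithium and 1071 under fluoxetine. Lithium against fluoxetine in WT mice had 121, and the difference of lithium responses 8 and 902. The cause was not tested.

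The replicate numbers do not pair the mice. With the number as a block, lithium in HT mice called 2 members, Gpr17 joining at 0.25 (adjusted p = 0.0476), and no other count of members with the sexes averaged changed.

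Counts over all genes moved more. Over the 12 settings they ran from 1512 to 3349 for lithium in WT (2109 as reported), 418 to 3452 for lithium in HT (1761), 421 to 3014 for fluoxetine in WT (933), 0 to 163 for fluoxetine in HT (0), 0 to 828 and 0 to 1071 for HT against WT under lithium and fluoxetine (0 each), 0 to 4 under vehicle (0), 1 to 564 for lithium against fluoxetine in WT (42), 0 to 902 for the difference of lithium responses (3) and 41 to 343 for males against females (51). Leaving out 1 library gave 1561 to 2263, 995 to 1958, 462 to 1295 and 0 to 3 for the 4 drug comparisons in the same order. It gave 36 to 208 for lithium against fluoxetine in HT mice (100 as reported; 37 under the lowest setting, and 4.60% of genes with array weights, the highest) and 8 to 87 in WT mice. It gave 25 to 105 for males against females, and 0 to 143, 0 to 1 and 0 to 1 for HT against WT under fluoxetine, lithium and vehicle. Within a sex, member calls also changed, as given beside each value. Groups held 3 to 5 libraries each, so a value that was not called does not show that there was no difference.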
